A study of Mus musculus with 2 samples.

Results

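The constitutive proteasome genes were read out in an Ago2 pull-down from TM4 cells, an established mouse Sertoli cell line. Members were taken by symbol, as every gene named Psma to Psmg with a number, and the interferon-inducible subunits Psmb8, Psmb9 and Psmb10 were left out. This gave 46 of the 22609 genes in the count tables. Of these, 44 had at least 20 reads summed over both libraries, as did 12186 genes in all, and these are called the tested genes. The members that fell under this minimum were Psma8, the testis form of an alpha subunit, with 2 reads in each library, and Psmb11, the thymus form of a beta subunit, with 1 read after mimic and 0 after scramble.

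TM4 cells received either the miR-471-5p mimic or scramble by transfection, and RNA bound to Ago2 was pulled down with an Ago2 antibody 48 h later. Ago2 holds the miRNA and is guided by it to mRNAs, and the study compared both pull-downs to look for mRNAs bound in the presence of miR-471-5p. There was 1 library per condition, so no value here has a replicate check and no test between the conditions was possible. Mature miR-471-5p itself is not measured by this kind of library. RNA from before the pull-down was not analysed here, so more mRNA in the cell and more binding to Ago2 cannot be told apart.

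The proteasome is the protease complex that degrades proteins tagged with ubiquitin. Its barrel-shaped 20S core is built from rings of alpha subunits, which gate the entry, and rings of beta subunits, some of which carry the proteolytic sites. The 19S cap binds the tagged protein: its base holds the ATPases that unfold the protein and its lid removes the ubiquitin. Other activators can sit on the core in place of the 19S cap, and dedicated chaperones assemble the parts. In the testis, special forms of the proteasome are known from germ cells, and Sertoli cells are the nurse cells that take up dying germ cells.

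The mimic library held 18628310 reads on genes and the scramble library 18717225, and the reads of a gene in either are called its mimic and scramble reads. A count of 3 reads, taken as the smallest detectable amount, was 0.161 CPM in each library, where CPM is a count scaled to the size of its library. Of 15 Sertoli marker genes in the tables, 7 were among the tested genes, and Sox9, a defining Sertoli factor, had 1228 mimic and 1070 scramble reads. The FSH receptor gene Fshr and Cst12 had 0 reads in both libraries, and Amh had 5 in each. The Sertoli markers summed to 779 CPM after mimic and 978 CPM after scramble, of which Kitl, the stem cell factor gene, held 656 and 866. Without Kitl they summed to 124 and 112 CPM, and the median log2 ratio of mimic to scramble over the 7 tested markers was 0.20, with 4 above 0. The summed levels of other cell types were 6.80 and 7.61 CPM for germ cells (3 of 6 markers tested), 4.50 and 4.71 for Leydig cells (1 of 5), 1.39 and 1.82 for macrophages (1 of 4) and 0.321 and 0.429 for endothelial cells (0 of 2). The levels of the other cell types were low in both libraries, and the part of these markers in the values of the proteasome genes was not tested.

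The sequence of the transfected miRNA is shown because its seed, bases 2 to 8 counted from the 5′ end and in capitals, defines the matches searched in the proteasome mRNAs. It was taken from RefSeq (GRCm38.p6, chrX:66792634-66792655, minus strand).
mmu-miR-471-5p: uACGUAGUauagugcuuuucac

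The proteasome genes together received 73688 reads in the mimic library, 0.396% of the reads on genes, and 67864 reads in the scramble library, 0.363%. The median log2 ratio of mimic to scramble over the 44 members was 0.19, a fold of 1.14, and over all tested genes it was -0.00. A log2 ratio above 0 was found for 33 of 44 members (75%), against 49.9% of all tested genes. For each gene a 95% exact Clopper-Pearson interval of the ratio was computed, which covers counting error only. The interval was wholly above 0 for 26 members (59.1%), against 31.5% of all tested genes, and wholly below 0 for 8 members (18.2%), against 32.5%.

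The differences were small. None of the 44 members reached a log2 ratio of 1, which 3.96% of all tested genes did, and none reached -1, which 2.95% did. A log2 ratio of at least 0.5 was reached by 10 members (22.7%), against 14.9% of all tested genes. At the other end, Psma3 and Psme4 were at or below -0.5, which is 4.55% of the members against 12.1% of all tested genes. The plot of reads in both libraries shows that the mimic library was the higher one for most genes of the core and that both libraries lay close together for most genes of the lid.

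**Figure D1:**
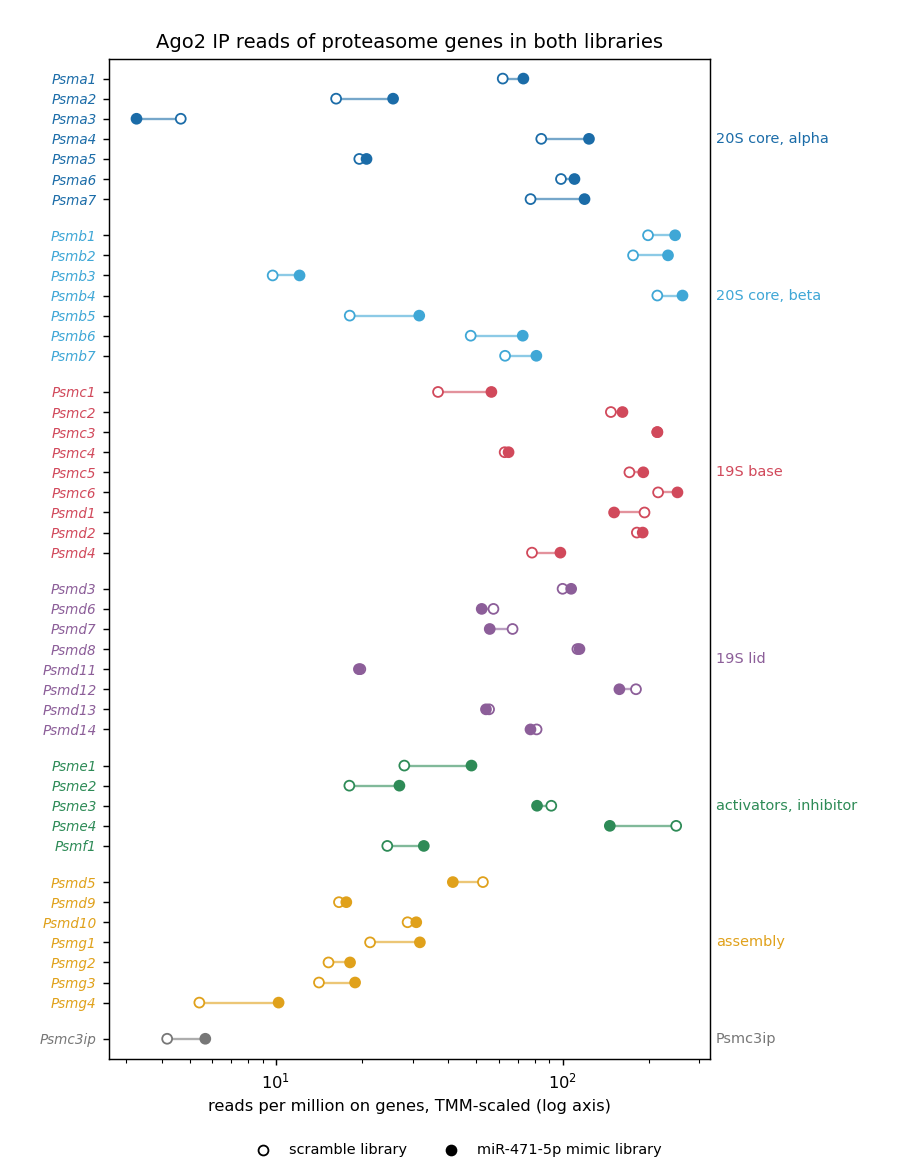
CPM of each tested proteasome gene in the scramble library (open circle) and the mimic library (filled circle), on a log axis and grouped by role in the complex. Each circle is 1 library. All 7 beta subunits are higher in the mimic library, beside 49.9% of all tested genes. Psme4 shows the widest gap in the other direction, 4652 against 2731 reads.

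The groups of the complex differed in their medians. The 20S core had a median log2 ratio of 0.34, with 13 of 14 members above 0, and the base had 0.13, with 8 of 9 above 0. The lid had a median of -0.05, with 2 of 8 above 0. When the reads of a group were summed, the core had 26442 mimic and 20360 scramble reads, a log2 ratio of 0.38 (interval 0.35 to 0.40). The sum for the lid was 11926 against 12581 reads, a log2 ratio of -0.08 (-0.11 to -0.04). Of core, base and lid, the core had the highest ratio, by the median and by the sum of reads.

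**Figure D2:**
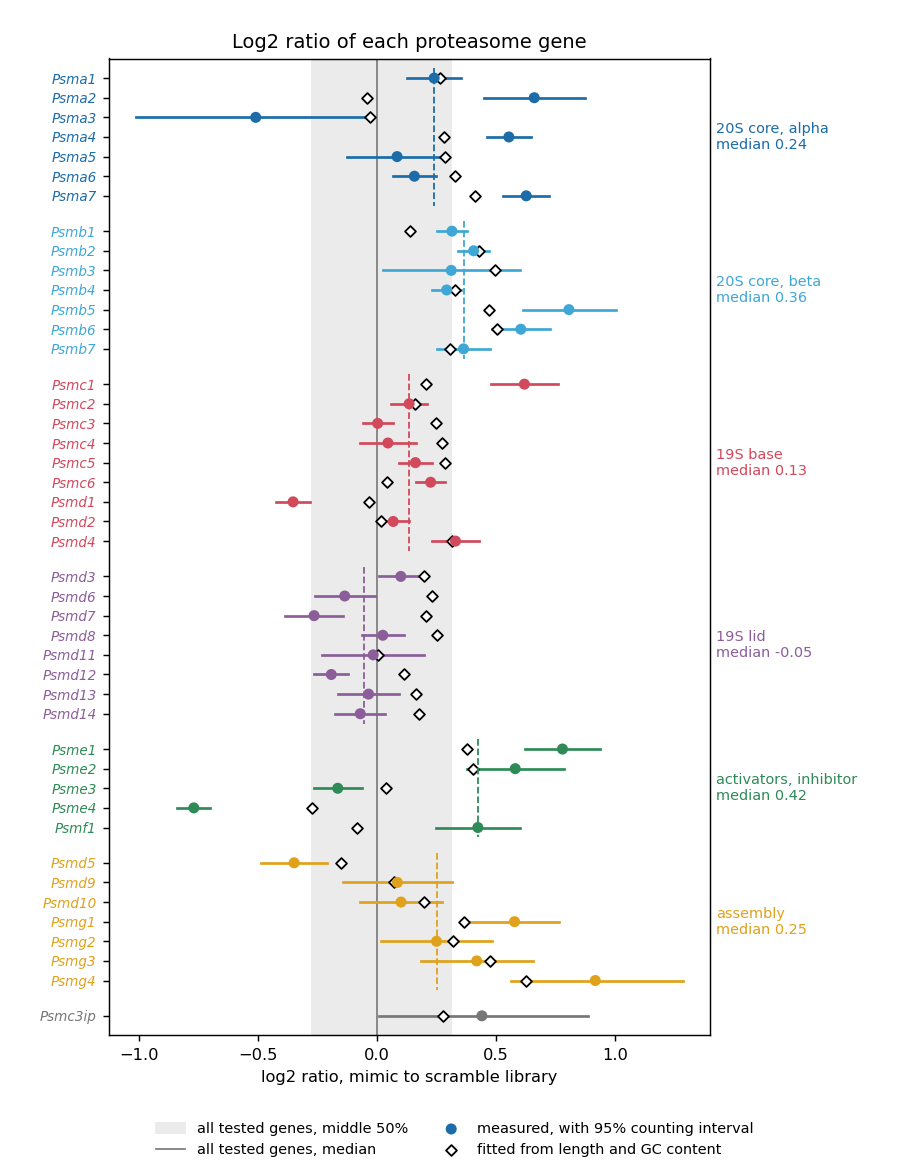
Log2 ratio of mimic to scramble for each tested proteasome gene, with its 95% counting interval, beside the value fitted from transcript length and GC content over all tested genes (open diamond). Dashed lines mark the median of each group, from 0.42 in the group of activators and inhibitor to -0.05 in the lid. Without the inhibitor Psmf1 the former median was 0.21. The shaded band holds the middle 50% of all tested genes, from -0.27 to 0.31.

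Among the alpha subunits, which form the outer rings of the core and its gate, 6 of 7 had a log2 ratio above 0 and the median was 0.24. Psma2 was the highest, with 479 mimic and 303 scramble reads, a log2 ratio of 0.66 (0.45 to 0.87). Psma7 had 2229 against 1444 reads (0.63) and Psma4 had 2310 against 1574 (0.55). These 3 genes had the highest ratios of the alpha ring. Psma1 had 1364 against 1155 reads (0.24) and Psma6 had 2056 against 1844 (0.16), closer to the middle of all genes. Psma5 had 387 against 365 reads and a ratio of 0.08, with an interval from -0.13 to 0.29. Psma3 was the only core gene that was lower in the mimic library, with 61 reads against 87, a log2 ratio of -0.51 (-1.01 to -0.02). It also had the fewest reads of the tested core genes, and the upper end of its interval lay close to 0.

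All 7 tested beta subunits had a higher count in the mimic library and an interval wholly above 0, beside 31.5% of all tested genes. Their median log2 ratio was 0.36. The values fitted from transcript length and GC content, described below, had a median of 0.43 over these genes. Of the 7, 4 had a ratio above their own fitted value. The catalytic subunits are Psmb5, with the chymotrypsin-like activity, Psmb6, with the caspase-like activity, and Psmb7, with the trypsin-like activity. Psmb5 had 591 mimic and 338 scramble reads, a log2 ratio of 0.80 (0.61 to 1.0), the highest of the core. Psmb6 followed with 1357 against 893 reads, a log2 ratio of 0.60 (0.48 to 0.73). Psmb7 had 1514 against 1177 reads, a log2 ratio of 0.36 (0.25 to 0.47), and its interval did not overlap that of Psmb5 or Psmb6. The intervals of Psmb5 and Psmb6 overlapped each other. Near-identical copies, described with the levels per kilobase, covered 88.4% of the Psmb5 transcript, so its ratio is uncertain.

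The beta subunits without a proteolytic site had log2 ratios from 0.29 to 0.40. Psmb4 was the lowest of the group, with 4896 mimic and 3998 scramble reads, a log2 ratio of 0.29 (0.23 to 0.35). Psmb1 had 4614 against 3710 reads (0.31), Psmb2 had 4358 against 3290 (0.40), and Psmb3 had 226 against 182 (0.31). Measured against all tested genes, Psmb5 lay at percentile 93.5 of the log2 ratio and Psmb4 at percentile 73.9.

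The catalytic subunits have inducible counterparts that replace them in the immunoproteasome: Psmb8 takes the place of Psmb5, Psmb9 that of Psmb6, and Psmb10 that of Psmb7. Psmb8 had 5476 mimic and 665 scramble reads, a log2 ratio of 3.04 (2.92 to 3.16), while its constitutive counterpart Psmb5 differed by 0.80. Psmb9 had 338 against 87 reads, a log2 ratio of 1.95 (1.61 to 2.31). Psmb10 had 1163 against 642 reads, a log2 ratio of 0.86 (0.72 to 1.0). In each pair the inducible gene had the higher ratio, and the intervals of a pair did not overlap.

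Of the reads on Psmb5 and Psmb8 together, Psmb8 made up 90.3% in the mimic library (exact Clopper-Pearson interval 89.5 to 91.0) and 66.3% in the scramble library (63.3 to 69.2). The share of Psmb9 beside Psmb6 was 19.9% (18.1 to 21.9) after mimic and 8.88% (7.17 to 10.8) after scramble. Psmb10 made up 43.4% (41.6 to 45.3) and 35.3% (33.1 to 37.5) of its pair. Per kilobase of transcript, the level of Psmb8 was 5.12 times that of Psmb5 after mimic and 1.09 times after scramble, so at this scale the pair was close to even in the scramble library. Psmb5 shares most of its transcript with a near-identical copy, as given with the levels per kilobase, so its level may be understated. The interval of each share covers the counting error of 1 library, and the spread between cultures is unknown.

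**Figure D3:**
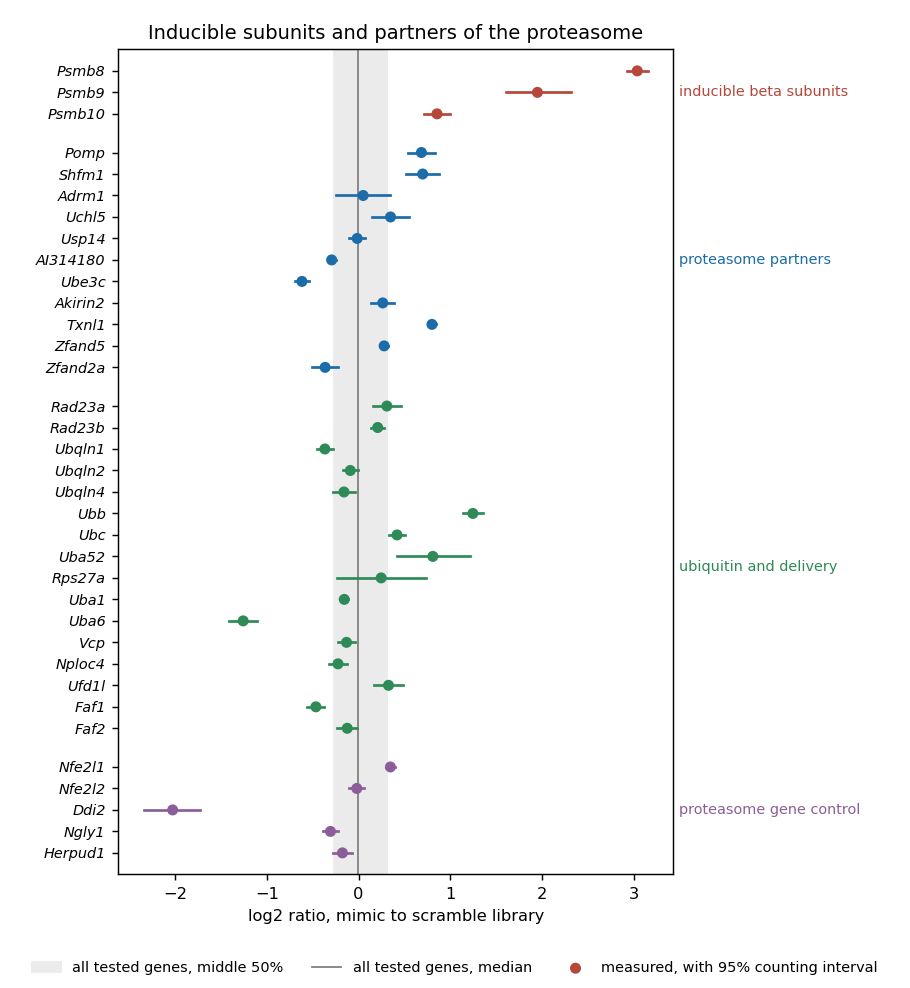
Log2 ratio of mimic to scramble, with 95% counting intervals, for the inducible beta subunits and for tested genes that work with the proteasome, grouped by role; the shaded band holds the middle 50% of all tested genes. Psmb8 at 3.04 and Psmb9 at 1.95 lie far to the right, and Uba6 at -1.26 and Ddi2 at -2.03 lie farthest to the left.

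In the base, the ATPases Psmc1 to Psmc6 had log2 ratios from 0.00 to 0.62. Psmc1 was the highest, with 1055 mimic and 687 scramble reads (interval 0.48 to 0.76). Psmc3 had nearly equal counts, 4003 against 3995, and Psmc4 had 1211 against 1173 (0.05), with an interval that crossed 0. The other ATPases lay between, with Psmc2 at 0.13, Psmc5 at 0.16 and Psmc6 at 0.22. Psmc1 thus had the highest ratio of the ATPases, and the intervals of the others all ended below the start of its own. Near-identical copies, described with the levels per kilobase, covered 82.0% of the Psmc1 transcript and 0% of those of the other ATPases. The ratio of Psmc1 is therefore uncertain.

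The non-ATPase base genes went in different directions. Psmd4, a ubiquitin receptor, had 1836 mimic and 1461 scramble reads, a log2 ratio of 0.33 (0.23 to 0.43). Psmd1, the large scaffold of the base, was the lowest, with 2826 against 3607 reads, a log2 ratio of -0.35 (-0.42 to -0.28). Psmd2, the other large scaffold, had 3556 against 3392 reads (0.07), with an interval that crossed 0.

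The 8 lid genes with a Psmd symbol had log2 ratios from -0.26 to 0.10. The small lid subunit Shfm1, which the symbol rule does not catch, had 655 mimic and 403 scramble reads, a log2 ratio of 0.70, and with it the lid ran from -0.26 to 0.70 with a median of -0.04. Psmd14, the deubiquitinase that cuts ubiquitin off the substrate, had 1444 mimic and 1516 scramble reads, a log2 ratio of -0.07 (-0.18 to 0.03). Psmd7, the partner with which Psmd14 forms its active pair, was the lowest of the lid, with 1041 against 1250 reads and a log2 ratio of -0.26 (-0.38 to -0.14). Psmd3 was the highest, with 2002 against 1868 reads, a log2 ratio of 0.10 (0.01 to 0.19). Among the other scaffold subunits of the lid, Psmd12 had 2949 against 3368 reads (-0.19) and Psmd6 had 976 against 1072 (-0.14), both with intervals wholly below 0. Psmd8 (0.02), Psmd11 (-0.02) and Psmd13 (-0.04) had intervals that crossed 0. The interval crossed 0 for 4 of the 8 lid genes and 1 of the 14 core genes, beside 36% of all tested genes.

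The activators and the inhibitor held the lowest and some of the highest ratios of the complex. Psme1 and Psme2 encode the subunits of the interferon-inducible PA28 ring. Psme1 had 899 mimic and 524 scramble reads, a log2 ratio of 0.78 (0.62 to 0.94), and Psme2 had 504 against 337, a log2 ratio of 0.58 (0.38 to 0.78). Psme3, which forms the nuclear PA28 ring, had 1522 against 1706 reads, a log2 ratio of -0.17 (-0.27 to -0.06). Psme4 encodes PA200, a large nuclear activator known from the testis for its role in histone turnover. It had 2731 mimic and 4652 scramble reads, a log2 ratio of -0.77 (-0.84 to -0.70), which was the lowest of all 44 members and lay at percentile 5.29 of all tested genes. Psmf1, the inhibitor PI31, had 613 against 457 reads (0.42). The median of this group was 0.42, yet its summed reads were 6269 against 7676, a log2 ratio of -0.29, so the median and the sum had opposite signs. Without Psme1 and Psme2 the median was -0.17, and without the inhibitor Psmf1 it was 0.21.

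Of the 7 assembly chaperones, 6 had a log2 ratio above 0, and the median was 0.25. Psmg1 to Psmg4 help to build the core. Psmg4 had the highest ratio of all members, with 191 mimic and 101 scramble reads, a log2 ratio of 0.92 (0.56 to 1.28), and with 555 nucleotides it was also the shortest transcript among them. Psmg1 had 594 against 398 reads (0.58), Psmg3 had 353 against 264 (0.42) and Psmg2 had 339 against 285 (0.25). Psmd5, Psmd9 and Psmd10 assist the base, and their ratios were lower. Psmd5 was the lowest, with 774 against 985 reads, a log2 ratio of -0.35 (-0.49 to -0.21), and Psmd9 (0.09) and Psmd10 (0.10) had intervals that crossed 0. The symbol rule also caught Psmc3ip, a meiotic recombination factor that is no part of the proteasome, with 106 against 78 reads (0.44).

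The log2 ratio moved with transcript length over the whole table. Over the 12082 tested genes with a matched transcript, Spearman's rho between length and log2 ratio was -0.43, and over the 44 members it was -0.64 (-0.62 over the 43 members without Psme4). These correlations are across genes of the same 2 libraries and are given as a description. Proteasome transcripts were short, with a median length of 1435 nucleotides against 3036 for all tested genes. With all genes sorted by length into 10 bins, the bin of the shortest genes reached up to 1272 nucleotides. There, 87.0% of the genes had a log2 ratio above 0 and the median was 0.44. The 17 members in that bin had a median of 0.42, and 8 of them lay above the median of the bin. The next bin, up to 1751 nucleotides, had a median of 0.23, and its 11 members had a median of 0.05, with 3 of them above the median of the bin.

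**Figure D4:**
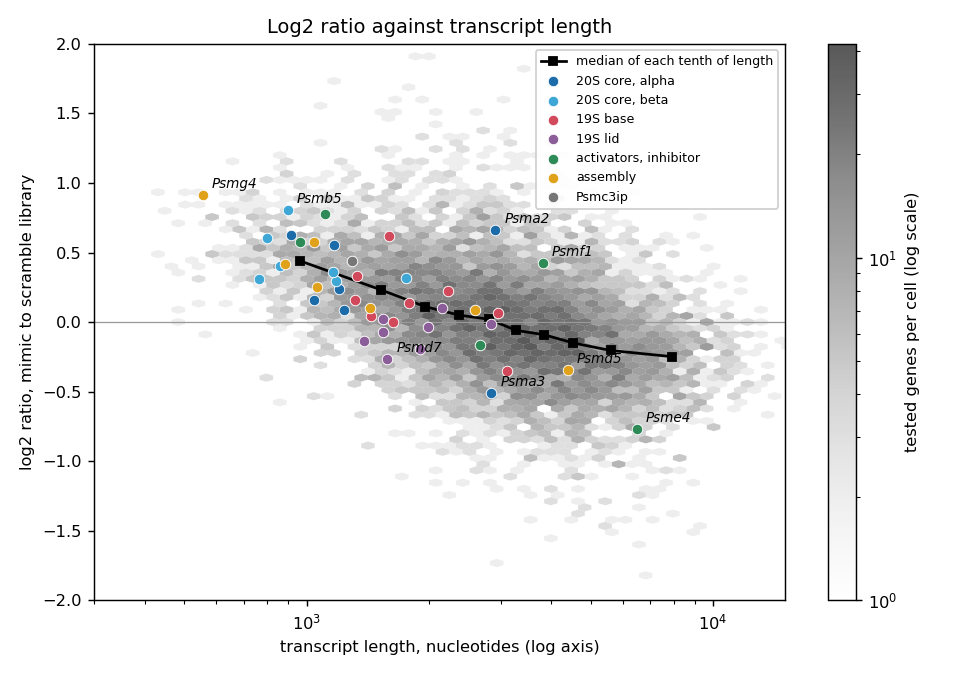
Log2 ratio of mimic to scramble against transcript length in nucleotides (log axis), with grey cells shaded by the number of tested genes, black squares for the median of each of 10 bins of length and coloured points for the proteasome genes; genes beyond the axis limits are not drawn. The medians of the bins fall from 0.44 to -0.25, and the proteasome genes also decline with length, with Psma2 and Psmf1 above it and Psma3, Psmd7 and Psme4 under it.

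A regression on length and GC content over all tested genes explained 15.0% of the variance of the log2 ratio. The ratio less the value fitted for its own length and GC content is called the residual here. The median residual was 0.02 in the core, -0.03 in the base and -0.05 among the assembly chaperones, beside -0.02 over all tested genes, and 7 of the 14 core genes had a residual above 0. The core's higher ratio was thus of the size fitted for genes of its length and GC content, which was 0.32 at the median. In the lid the median residual was -0.24, and all 8 of its genes with a Psmd symbol had a residual below 0, beside 52.2% of all tested genes with a transcript. The lid subunit Shfm1 had a residual of 0.52, and with it the median residual was -0.23. Over all 44 members the median residual was -0.03, with 18 (40.9%) above 0, beside 47.8% of all tested genes. Whether length itself or something that moves with it set these ratios was not tested.

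Some members stood away from the value fitted for their length. Psma2, with a transcript of 2911 nucleotides, had a residual of 0.70, and Psmf1, with 3809 nucleotides, had 0.51. Of these lengths, 2171 and 2822 nucleotides lay in the 3′-untranslated region (3′-UTR). Each length is that of 1 annotated transcript per gene, and which form the cells held was not tested. Psmc1 (0.41), Psme1 (0.40) and Psmb5 (0.34) were also above their fitted values. Psme4, with 6491 nucleotides, had a residual of -0.50, so its ratio was lower than the value fitted for its length. Psma3 (-0.48) and Psmd7 (-0.47) were similarly far under their fitted values. Near-identical copies covered 82.0% of Psmc1, 88.4% of Psmb5 and 34.4% of Psma3, so the residuals of these genes are uncertain.

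Levels in CPM per kilobase of transcript differed widely between core subunits. In the scramble library they ran in the alpha ring from 1.64 for Psma3 to 94.8 for Psma6, a range of 57.9-fold, and in the beta ring from 12.7 for Psmb3 to 205 for Psmb2, a range of 16.1-fold. Over the whole core the range was 125-fold and the median 57.1. The core range was 47.9-fold per kilobase of coding sequence, and 36.8-fold per kilobase of transcript without the genes that have near-identical copies. The base ran from 23.1 for Psmc1 to 131 for Psmc3, and the lid from 6.92 for Psmd11 to 94.8 for Psmd12. The medians of the base, 62.1, and of the lid, 44.5, were close to that of the core.

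Low levels stood beside near-identical copies of the gene elsewhere. Alignments of reads that fit several places were set aside in the counting, and they made up 39.8% of the mimic entries and 35.6% of the scramble entries. Stretches of at least 50 nucleotides with at least 95% identity to transcripts of other genes covered at least 10% of the transcript in 9 of the 44 members. They covered 88.4% of Psmb5, 82.5% of Psme2, 82.0% of Psmc1, 80.7% of Psmb3, 76.5% of Psma5, 66.9% of Psma4, 52.7% of Psmd11, 34.4% of Psma3 and 98.2% of Psmd2. Of the 5 lowest levels in the core, 4 belonged to such genes, the exception being Psma2 at 5.58. Per kilobase of coding sequence Psma2 was at 23.0. The transcripts used for Psma2 and Psma3 have 3′-UTRs of 2171 and 1952 nucleotides, against a median of 227 over the members. Their levels per kilobase of transcript thus depend on the transcript chosen. The 5 core genes with copies had a median of 15.8 and the 9 without had 84.6. The median log2 ratio was 0.31 in the former and 0.36 in the latter. For the genes with copies the counts may miss reads or hold reads of the copy, so their levels and ratios are uncertain.

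**Figure D5:**
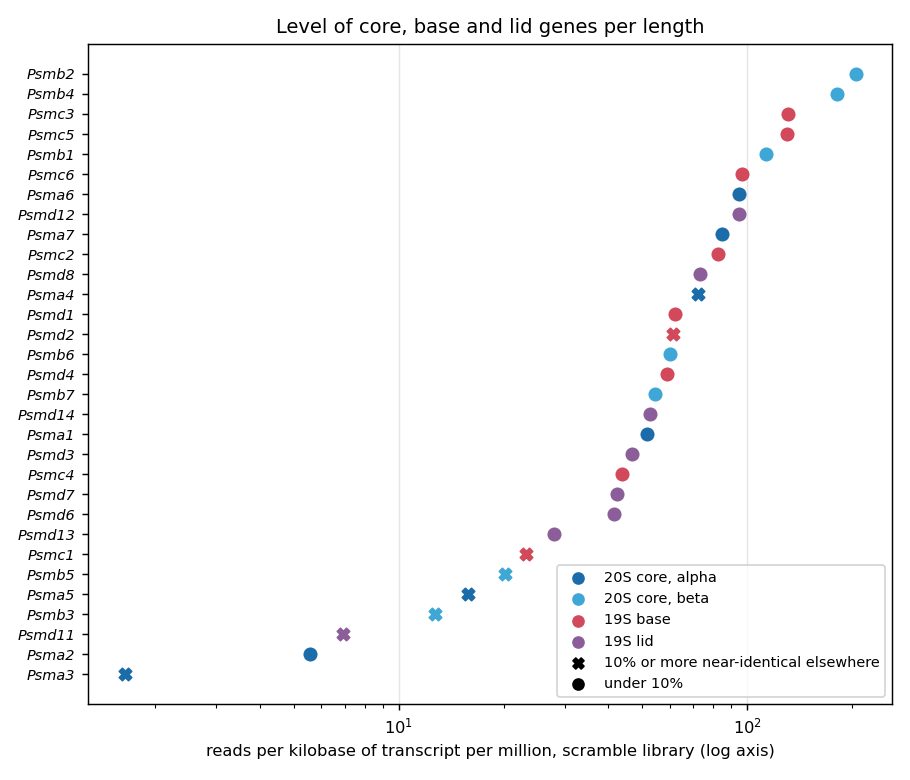
CPM per kilobase of transcript in the scramble library (log axis) for each tested gene of the core, base and lid, in order of level; crosses mark genes with at least 10% of the transcript near-identical to other transcripts. The crosses gather at the low end, where Psma3, Psmd11, Psmb3, Psma5, Psmb5 and Psmc1 lie, and Psmd2 and Psma4 are the exceptions in the middle of the order.

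Other genes overlap some members and share exon sequence with them. On the opposite strand, exons of Nek6 overlap 34.9% of the Psmb7 transcript, exons of Sirt3 overlap 17.2% of Psmd13 and exons of Mlx overlap 29.8% of Psmc3ip. Ambiguous reads, 0.653% of the mimic and 0.585% of the scramble entries, were credited to no gene, so such members may have lost reads in the overlaps. The annotation and strand setting of the counting are not given in the sources used here, so the size of this loss is unknown. Exons of Tap1 overlap 15.7% of the inducible Psmb9 in the same way. On the same strand, the predicted genes Gm26938 and Gm21972 overlap 26.8% of Psmg3 and 9.67% of Psmd1, and Mir686 overlaps 12.1% of Psmb5.

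Matches to the miR-471-5p seed were searched in GENCODE M21 transcripts (GRCm38), 1 principal transcript per gene. ACTACGT pairs with the whole seed and CTACGT leaves out its last base. ACTACGTA and CTACGTA are the same letters with an adenine at the end. The 3′-UTR is the usual site of miRNA pairing. There, none of the 44 members held ACTACGT, against 1.43% of 11677 tested genes, and Psmd9 alone held CTACGT, against 6.07%. The members' 3′-UTRs had a median length of 227 nucleotides, against 1048 for all tested genes, so they offered less sequence to search.

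In the coding sequence, ACTACGT was present in Psmb5, Psmc1 and Psmd1, that is 3 of 44 members against 4.33% of 11772 tested genes. The longest match, ACTACGTA, was present in Psmb5 alone, against 0.442% of tested genes, and CTACGTA was present in Psmb6 too. The short match CTACGT was present in 8 of 44 members, against 16.2% of tested genes. The members' coding sequences had a median length of 805.5 nucleotides, against 1398 for all tested genes, so they too offered less sequence to search. The 4 coding sites with more than CTACGT are shown because they belong to the catalytic subunits Psmb5 and Psmb6 and to the highest and the lowest gene of the base; the match is in capitals, and the coordinates are those of CTACGT in GRCm38. The Psmb5 site lies in exon 3 of 3 (chr14:54614469-54614474, minus strand) and the Psmb6 site in exon 5 of 6 (chr11:70527270-70527275, plus strand). The Psmc1 site lies in exon 5 of 11 (chr12:100115533-100115538, plus strand) and the Psmd1 site in exon 18 of 25 (chr1:86118554-86118559, plus strand).
Psmb5: ccctggcctctACTACGTAgacagcgagg
Psmb6: gctatgttgatgCTACGTAtcgggaaggc
Psmc1: gggctcagaacACTACGTcagcatcctgt
Psmd1: cgaccctgtgaACTACGTgaggcaagggg

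The genes with these sites did not share a direction. Psmb5, Psmb6 and Psmc1 had log2 ratios of 0.80, 0.60 and 0.62, and Psmd1 had -0.35. Of all tested genes, the 52 with ACTACGTA in the coding sequence had a median log2 ratio of 0.10 (middle 50% from -0.21 to 0.53), with 27 of them above 0, and the 11720 without it had -0.00. The 510 with ACTACGT had a median of -0.02, with 246 above 0. The median residual after length and GC content was 0.19 with ACTACGTA and 0.07 with ACTACGT, beside -0.02 in the genes without the respective match, so the median with ACTACGT changed its sign. A letter match is a description of the sequence and not a measured binding site.

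Promoters were read from RefSeq (GRCm38.p6), as windows of 300 bases from 250 before to 50 after the start of the gene. Windows were found for 37 of the 44 members. Of the beta subunits, Psmb3, Psmb4, Psmb5 and Psmb6 had a window, so Psmb1, Psmb2 and the catalytic Psmb7 were not searched. TGACNNNGC is the core of the antioxidant response element, which is bound by the Nfe2l factors that drive proteasome genes after proteasome inhibition. On either strand it was present in 6 of 37 members (16.2%), against 13.99% of the 27025 genes with a window, tested or not. These 6, with their log2 ratios, were Psmb5 (0.80), Psmb6 (0.60), Psmc6 (0.22), Psmd9 (0.09), Psmd12 (-0.19) and Psme4 (-0.77). CCAAT, the box bound by NF-Y, was present in 13 members (35.1%, Psmc3ip included), against 41.1% of all genes with a window. By group it was present in 5 of 7 alpha, 1 of 4 beta, 3 of 8 base and 1 of 6 lid genes. Among the activators with the inhibitor it was in 1 of 5 genes, and among the assembly chaperones in 1 of 6.

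The letters of interferon response elements were searched because Psmb8, Psmb9 and the PA28 genes are known interferon targets. GAAANNGAA, the core of the interferon-stimulated response element, was present on either strand in 7 of 37 members (18.9%), against 9.76% of all genes with a window. They were Psmb3, Psmb4, Psmc2, Psmd4, Psmd9, Psme1 and Psmg4. The windows of Psmb8, Psmb9 and Psme2 did not hold these letters. TTCNNNGAA, the gamma-activated sequence, was present in Psmd2 and Psmg1, 5.41% of members against 9.55% of all genes with a window. It was also present in the window of Psmb8. The 4 stretches shown belong to the catalytic subunits Psmb5 and Psmb6, and to Psme1 and Psmg4. Psme1 and Psmg4 have the highest ratios among the activators and chaperones. The matched letters are in capitals. They lie at chr14:54618024-54618052 (Psmb5, minus strand), chr11:70525338-70525366 (Psmb6, plus strand), chr14:55578494-55578522 (Psme1, plus strand) and chr13:34162969-34162997 (Psmg4, plus strand).
Psmb5, TGACNNNGC: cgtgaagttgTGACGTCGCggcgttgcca
Psmb6, TGACNNNGC: ctaaagagagTGACGGAGCgctttacgac
Psme1, GAAANNGAA on the reverse strand: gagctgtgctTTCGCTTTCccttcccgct
Psmg4, GAAANNGAA: gcgcgcatctGAAAGTGAAagagcgttcc

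Members with the letters of the interferon element had log2 ratios from 0.09 for Psmd9 to 0.92 for Psmg4, and Psme1 had 0.78. Those with the antioxidant core ranged from -0.77 for Psme4 to 0.80 for Psmb5. The latter thus lay in both directions, and none of the former 7 was lower in the mimic library, beside 33 of 44 members that were higher. The residuals of these 7, after length and GC content, ran from -0.18 for Psmb3 to 0.40 for Psme1 and so lay in both directions.

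The genes that work with the proteasome were taken as a list of 34, of which 32 were tested. Their median log2 ratio was -0.02, with 15 above 0, beside 0.19 and 33 of 44 in the proteasome genes. After length and GC content were taken out, the medians were alike, -0.03 in each. The separate lists differed in this. Among 11 proteasome partners the median log2 ratio was 0.26, with 7 above 0, and the median residual was 0.18. Pomp, the chaperone that completes the core, had 1027 mimic and 638 scramble reads, a log2 ratio of 0.69 (0.54 to 0.83). Txnl1, a redox cofactor of the cap, had 13991 against 8028 reads (0.80), and Ube3c, a ubiquitin ligase bound to the proteasome, had 2576 against 3951 (-0.62).

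Among 16 genes of ubiquitin and its delivery the median log2 ratio was -0.11, with 7 above 0, and the median residual was -0.07. Ubb, a polyubiquitin gene, had 2309 mimic and 972 scramble reads, a log2 ratio of 1.25 (1.14 to 1.36), and was the only gene of the 32 at or above 1. Uba6, a ubiquitin-activating enzyme, had 514 against 1230 reads, a log2 ratio of -1.26 (-1.41 to -1.11). The list for control of proteasome gene expression held 5 tested genes, with 1 above 0 and a median residual of -0.27. It included Herpud1, a stress gene, at -0.18. The gene above 0 was Nfe2l1, the factor that raises proteasome transcription when degradation is impaired, with 7852 against 6168 reads (0.35). Ddi2, the protease that activates the Nfe2l1 protein, had the lowest ratio of the list, with 111 mimic and 454 scramble reads, a log2 ratio of -2.03 (-2.35 to -1.73). Ngly1, which removes sugars from the Nfe2l1 protein, had 1961 against 2424 reads (-0.31).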

How the data were processed

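Ago2-bound RNA of TM4 cells was sequenced by the authors as 1 library after miR-471-5p mimic and 1 after scramble transfection. The submitters' processing notes name CASAVA 1.8.2, TopHat2 2.0.8b, HTSeq and the genome build mm9, and the annotation and strand setting are not given in the sources used here. The authors deposited unnormalized read counts per gene symbol. The 5 summary rows were left out of library sizes. Reads on genes were 52.7% and 55.9% of the entries in the mimic and scramble library, and the rest were not unique (39.8% and 35.6%), outside genes (6.84% and 7.89%) or ambiguous (0.653% and 0.585%).

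TMM factors of 1.0026 (mimic) and 0.997 (scramble) were computed from the deposited counts over genes with at least 20 counts (edgeR 4.0.16 under R 4.3.3). The log2 ratio used a pseudocount of 0.5. The quasi-likelihood test could not be fitted with 1 library per group, and no p-value is given. Exact Clopper-Pearson intervals of 95% came from the mimic share of a gene's counts with Python 3.11.15 and scipy 1.17.1. Reads carry no molecular identifiers, so intervals and the floor of 3 counts cover counting error only. The computation was tested on simulated data.

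Transcript lengths, GC content and seed matches came from GENCODE M21 (GRCm38), matched by symbol for 99.1% of tested genes, and no coordinates were carried between builds. Near-identical copies were searched with BLAST 2.17.0. The regression used log10 length and GC content. The alternatives were total counts or DESeq2 1.42.0 size factors, minimums of 1 and 200 counts, a pseudocount of 5, a threshold of 0.5 and other group borders. Every member could be named, with the highest and lowest of each group, the catalytic subunits and Psmd14 in full. The members, lists and motifs were chosen with earlier results of these data known.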

Additional observations from a re-analysis of the deposited data

How the results depend on the processing

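The medians of the groups and of all 44 members moved by less than the counting error of the member nearest the median under total counts, DESeq2 size factors, minimums of 200 or 1 counts and a pseudocount of 5, for 30 of 30 values. Taking out the value fitted from length and GC content moved them all, to 0.018 in the core, -0.025 in the base, -0.24 in the lid, 0.18 in the activators, -0.054 in the assembly chaperones and -0.030 over all members, so the sign changed in the base, the chaperones and all members. With the mean level as a further term, chosen after seeing the data, these were 0.034, -0.023, -0.23, 0.20, -0.032 and -0.028. The median of the activators was -0.17 without Psme1 and Psme2, 0.21 without Psmf1 and 0.13 without Psme2, its gene with near-identical copies, an alternative also chosen after seeing the data. Leaving out members with copies kept the other medians within that error. Psmd4 counted with the lid, Shfm1 added to the lid (also chosen after seeing the data), and all members without Psme1, Psme2 and Psmc3ip, gave values within it too. The number of members at a log2 ratio of at least 1 was 0, and 1 with a minimum of 1 count, where Psmb11 enters with 1 read. With a threshold of 0.5 there were 10 higher and 2 lower members, against 0 and 0 at 1. No paired analysis was possible because there was 1 library per group, and for the same reason no replicate could be left out. At this depth the interval of 10 of the 44 members (22.7%) crossed 0, beside 36% of all tested genes, and the spread between cultures is unknown.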
